A study of Homo sapiens with 8 samples.

Results

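Chromatin marks were examined at 6 genes that are known to be amplified, deleted or mutated in HL-60 cells: MYC, PVT1, NRAS, CDKN2A, CDKN2B and MTAP. They were taken as a list of known lesion genes, and are 6 of the 38690 protein-coding and long non-coding RNA genes annotated on the chromosomes used. HL-60 is an established line of human promyelocytic leukemia cells that matures towards granulocytes when given all-trans retinoic acid (ATRA). All cells came from this single line, in both conditions. Whether its copy number changes and mutations were equal in the 2 conditions was not measured. The cells received 1 µM ATRA for 4 days, or the same volume of the solvent ethanol (control), and the agent was given again when the medium was replaced midway. Chromatin immunoprecipitation followed by sequencing was done with antibodies against H3K4me3, a histone mark of active promoters, and H3K27ac, a mark of active promoters and enhancers. Each mark had 2 ATRA and 2 control libraries, 8 libraries in all.

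The peaks that lay over each gene and its flanks were collected from each library, with a flank of 100 kb on each side for MYC and 20 kb for the other genes. The measure was the length under peaks in that window, in bp. Length under peaks is not read density, and copy number was not measured. The comparison of conditions is given as the log2 ratio of mean lengths, with 1000 bp added to each mean. A window was called higher or lower where the values of the ATRA libraries were both above, or both below, those of the control libraries. With 2 libraries against 2, the smallest p of the exact two-sided permutation test was 0.333, so no single window could pass a threshold of 0.05.

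Whole libraries differed in how much of the genome lay under peaks. The H3K4me3 libraries held between 13241 and 16487 peaks over 47.7 to 63.2 Mb. H3K27ac covered 64.8 and 86.1 Mb in ATRA-treated cells and 28.8 and 54.0 Mb in control cells, a genome-wide log2 ratio of 0.87, against 0.22 for H3K4me3. Each call is therefore also given on a second scale, the bp under peaks in the window per Mb under all peaks of that library. The number of reads behind the peaks was not given in the sources used here, and its part in these differences was not tested. As a check of the labelled cell type, 8 of 10 myeloid marker genes had promoter H3K4me3 in all 4 libraries, MPO, CTSG and SPI1 among them, while ELANE had no peak. Of 16 markers of other cell types, 13 had no peak in any library and 1, CD4, had one in all 4.

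MYC encodes a transcription factor that pairs with MAX on E-box sequences and drives growth and division, and its locus was found amplified in HL-60 cells. PVT1 is the long non-coding RNA gene next to MYC, and its body is known to hold enhancers. NRAS encodes a small GTPase that passes growth factor signals to kinases inside the cell. CDKN2A encodes 2 tumor suppressors from separate start sites, INK4A, an inhibitor of the CDK4 and CDK6 kinases, and ARF, which acts on a separate growth arrest pathway. CDKN2B encodes a further inhibitor of these kinases, and MTAP, the adjacent gene, encodes an enzyme of methionine salvage that is often lost together with CDKN2A.

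The promoters of NRAS and of the 3 chromosome 9 genes are shown because their peaks bear on whether these loci are present and active in the cells. Each is the 250 bp before the annotated start site, read 5′ to 3′ on the strand of the gene from GRCh37, the assembly also named hg19. NRAS is from chr1:115259393-115259642 (minus strand), CDKN2A from chr9:21974857-21975106 for the INK4A transcript and chr9:21994392-21994641 for the ARF transcript (minus strand), CDKN2B from chr9:22009305-22009554 (minus strand) and MTAP from chr9:21802385-21802634 (plus strand). Capitals mark matches on either strand to the E-box CACGTG, to CCAAT or to the GC box GGGCGG.
NRAS: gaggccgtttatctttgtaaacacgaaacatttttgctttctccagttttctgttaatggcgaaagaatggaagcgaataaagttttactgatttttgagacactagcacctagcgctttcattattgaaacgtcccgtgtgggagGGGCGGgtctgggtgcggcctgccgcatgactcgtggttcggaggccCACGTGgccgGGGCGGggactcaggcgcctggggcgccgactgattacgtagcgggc
CDKN2A INK4A: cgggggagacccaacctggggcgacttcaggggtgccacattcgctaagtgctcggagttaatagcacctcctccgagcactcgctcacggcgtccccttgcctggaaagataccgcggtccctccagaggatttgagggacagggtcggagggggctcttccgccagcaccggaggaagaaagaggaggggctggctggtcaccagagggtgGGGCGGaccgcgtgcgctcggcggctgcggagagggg
CDKN2A ARF: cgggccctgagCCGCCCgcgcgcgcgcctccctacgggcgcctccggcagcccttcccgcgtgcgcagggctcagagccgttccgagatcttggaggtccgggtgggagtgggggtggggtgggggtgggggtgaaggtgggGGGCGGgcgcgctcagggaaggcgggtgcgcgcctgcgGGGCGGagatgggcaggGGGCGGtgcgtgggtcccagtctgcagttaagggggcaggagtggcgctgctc
CDKN2B: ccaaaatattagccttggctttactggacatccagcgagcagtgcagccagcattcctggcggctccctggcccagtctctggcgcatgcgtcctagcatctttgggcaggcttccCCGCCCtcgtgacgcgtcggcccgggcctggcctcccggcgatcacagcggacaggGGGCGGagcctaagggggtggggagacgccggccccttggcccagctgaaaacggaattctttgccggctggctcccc
MTAP: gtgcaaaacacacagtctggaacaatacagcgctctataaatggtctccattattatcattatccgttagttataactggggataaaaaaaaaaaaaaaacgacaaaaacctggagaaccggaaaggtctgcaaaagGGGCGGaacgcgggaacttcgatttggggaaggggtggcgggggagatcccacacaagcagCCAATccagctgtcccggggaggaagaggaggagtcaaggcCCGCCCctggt

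All 7 promoters searched, those of MYC and PVT1 included, held a GC box, with 4 matches before ARF, 3 before PVT1 and 1 each before MYC and INK4A. Of the 19811 promoters of the same length, 59.2% held one. The E-box occurred before NRAS alone among the 7, where 7.87% of promoters had it, and CCAAT occurred before MTAP alone, where 34.2% had it. An exact copy of the DR5 retinoic acid response element, a direct repeat of the receptor half-site, was in none of the 7 and in 0 of the 19811 promoters. The PVT1 promoter was the richest of the 7 in G and C, at 83.2%, and MTAP the poorest, at 50.0%, against a median of 63.2% over all promoters, which was also the value for MYC.

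In the H3K4me3 libraries, a peak lay over the start site of each of the 6 genes, and over both start sites of CDKN2A, in all 4 libraries. Over all protein-coding genes, 51% of canonical start sites were under an H3K4me3 peak in all 4 libraries, 19.7% were under an H3K27ac peak in all 4, and 19.4% were under both marks in all 8. The start sites of MYC, INK4A and ARF belonged to this last group. CDKN2B and MTAP had no H3K27ac peak over the start site in any library, as was the case for 56.1% of all protein-coding genes.

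Between conditions, most members overlapped in bp for either mark. Shares of gene windows called, and their medians, here and below cover protein-coding gene windows with a peak of the mark in at least 1 library. With the 20 kb flank these were 14609 windows for H3K4me3 and 15477 for H3K27ac. The counts in the lists below include genes without a peak. For H3K4me3, 1 of 6 windows was called higher, 0 lower, and 5 overlapped. Of all such windows with a 20 kb flank, 41.3% were called higher and 3.39% lower, and 45% and 1.91% with a 100 kb flank, that of MYC. For H3K27ac, 2 windows were called higher, 0 lower, and 4 overlapped, against 43.7% higher and 3.86% lower with the 20 kb flank and 50.6% and 2.83% with the 100 kb flank. Neither count exceeded the share over these windows. Per Mb under all peaks, 1 window was higher and 4 were lower for each mark, where 16% of windows with the 20 kb flank were higher and 25.4% lower for H3K4me3, and 18.4% and 25.1% for H3K27ac. With the 100 kb flank these shares were 16.7% and 26.7% for H3K4me3, and 18.9% and 24.6% for H3K27ac. The 6 windows are not independent. Those of MYC and PVT1 both hold the PVT1 promoter peaks, and those of CDKN2A and CDKN2B both hold the ARF promoter peaks. For H3K4me3 the 4 lower windows were these same ones, so shared peaks were counted more than once.

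**Figure D1:**
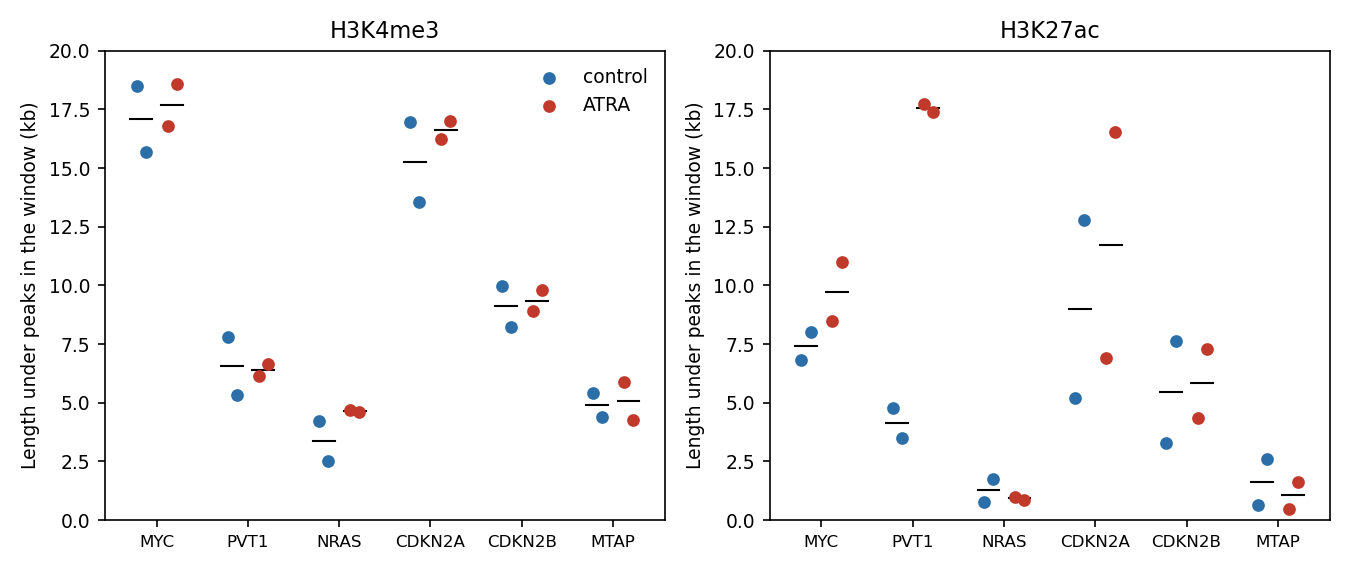
Length under peaks in the window of each gene (kb, vertical axis) for H3K4me3 (left) and H3K27ac (right). Points are single libraries, 2 per condition, and short lines are their means. H3K27ac in PVT1 had the widest gap between conditions, 17749 and 17390 bp in ATRA-treated cells against 4798 and 3511 bp in control cells.

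PVT1 (ENSG00000249859, chromosome 8, 128806772 to 129199347, plus strand) showed the largest difference among the members. Under H3K27ac peaks lay 17749 and 17390 bp in ATRA-treated cells, and 4798 and 3511 bp in control cells. The 2 ATRA libraries were close to each other and far above both control libraries. The log2 ratio was 1.85, with a pooled SD between replicates of 0.18 on the same scale and an exact permutation p of 0.333, the smallest possible. This ratio stood at the 93.1 percentile of all gene windows with peaks. Those windows share the 20 kb flank but not the length of the PVT1 window, 433 kb. PVT1 was also higher per Mb under all peaks, at 274 and 202 bp against 167 and 65.1 bp, the only member of which this held for H3K27ac.

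H3K4me3 in PVT1 did not follow. It covered 6124 and 6673 bp in ATRA-treated cells and 7821 and 5333 bp in control cells, so that the conditions overlapped, with a log2 ratio of -0.034. It was lower per Mb under all peaks, at 97.0 and 107 bp against 131 and 112 bp. Nearly all of this length was the promoter peak, of 5493 and 6673 bp upon ATRA induction and 7136 and 5333 bp without it. H3K27ac at the same promoter covered 2743 and 2041 bp upon ATRA induction and 2733 and 1847 bp without it, again overlapping. In ATRA replicate 2 and control replicate 2 the H3K27ac peak began 56 and 20 bp downstream of the start site rather than over it.

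The H3K27ac gain thus lay inside the PVT1 body, away from the canonical start site of the gene. The longest region covers an annotated start site of other PVT1 transcripts and that of the microRNA gene MIR1207. This region, at 129057832 to 129065951 and centred 313.4 kb from the MYC start site, was under a peak in all 4 libraries, and its length under peaks was 6255 and 8120 bp in ATRA-treated cells and 2065 and 1132 bp in control cells. A second, at 128885775 to 128890602, 139.7 kb from the MYC start site, held 4697 and 1583 bp in ATRA-treated cells, and 0 and 532 bp in control cells. In both regions the ATRA libraries were above both control libraries. The second had no H3K4me3 peak in any library, and the first overlapped a short H3K4me3 peak of 631 bp in ATRA replicate 1 and 485 bp in control replicate 1.

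Across the joined MYC and PVT1 windows, H3K27ac formed 17 regions once the peaks of the 4 libraries were merged, 12 of them without H3K4me3. No genome-wide share is given for this last count. Of the 17, 3 were in all 4 libraries, which was 18.7% of regions genome-wide, and 3 were called higher and 0 lower, where 19.2% and 2.98% were so called genome-wide. Each of the regions outside these groups was seen in a single ATRA library. For instance, 1514 bp at 152.7 kb occurred in ATRA replicate 2 alone, and 1806 bp at 244.1 kb in ATRA replicate 1 alone. No region was held by both ATRA libraries alone or by both control libraries alone, classes that made up 8.07% and 1.16% genome-wide. For H3K4me3, 2 of 5 regions were in all 4 libraries, beside 57.3% genome-wide. Of these 5, 1 was called higher and 0 lower, beside 28.2% and 4.06% genome-wide.

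**Figure D2:**
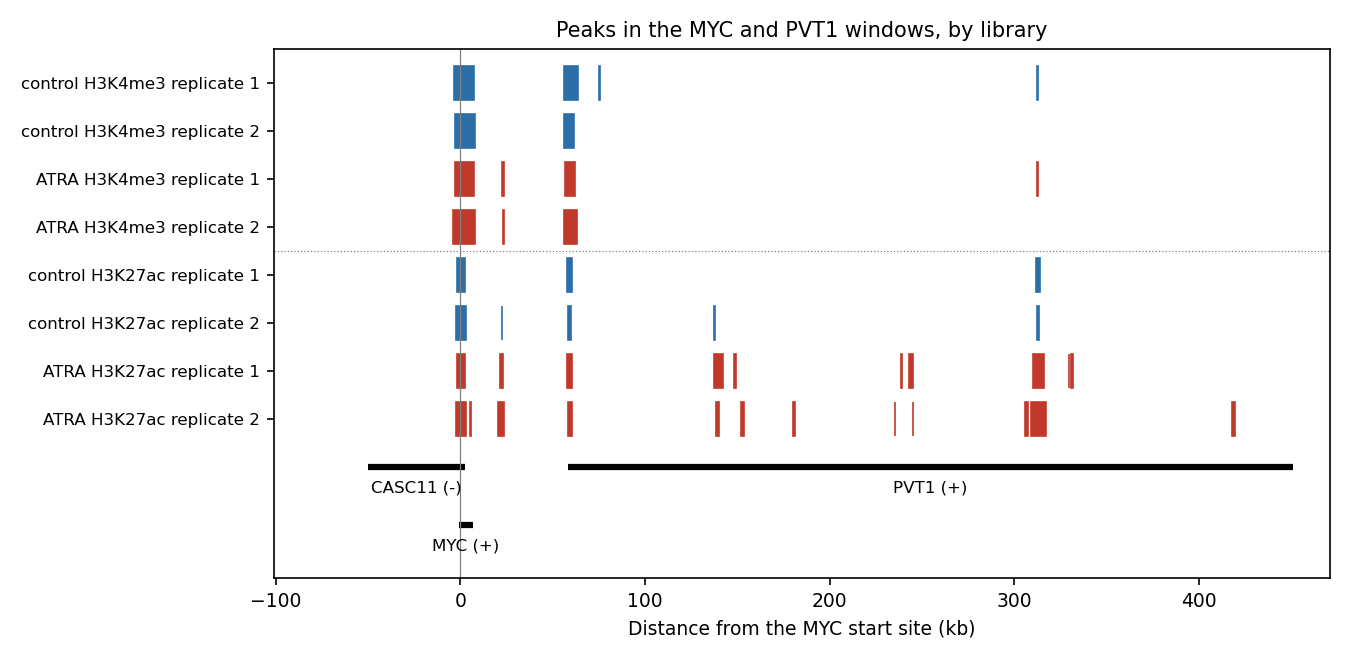
Peaks of each library (rows) over the MYC and PVT1 windows, by distance from the MYC start site (kb). Blue is control and red ATRA, the upper 4 rows are H3K4me3 and the lower 4 H3K27ac, and black bars are genes with their strand. H3K27ac regions at 22.1, 139.7 and 313.4 kb were longer in both ATRA libraries, while the promoter peaks of MYC and PVT1 were in every library.

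MYC (ENSG00000136997, chromosome 8, 128747680 to 128755197, plus strand) carried one of the longest H3K4me3 peaks of each library. Its H3K4me3 peak was 10307 and 11555 bp in ATRA-treated cells and 11177 and 10355 bp in control cells, at the 97.4 to 98.8 percentile of peak length in its library. The H3K27ac peak over the start site was 4166 and 5478 bp in ATRA-treated cells and 4071 and 5804 bp in control cells, at the 86.2 to 95.2 percentile. Both marks overlapped between conditions at this promoter. The region of each mark also held an annotated start of CASC11, a long non-coding RNA gene on the other strand, so the marks of these starts cannot be told apart. The part of the amplification in these lengths was not tested.

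Over the whole MYC window, which reaches past the PVT1 promoter, H3K4me3 covered 16776 and 18598 bp in ATRA-treated cells and 18513 and 15688 bp in control cells (log2 ratio 0.046, exact permutation p = 0.667). The conditions overlapped, and per Mb under all peaks the ATRA libraries were lower, at 266 and 298 bp against 309 and 329 bp. H3K27ac covered 8495 and 10981 bp in ATRA-treated cells and 6804 and 8010 bp in control cells, a log2 ratio of 0.35 with a pooled SD of 0.20. It was called higher in bp with an exact permutation p of 0.333, and the log2 ratio was 0.18 without ATRA replicate 2 and 0.25 without control replicate 1. The call turned over with the scale, as per Mb under all peaks H3K27ac was lower in ATRA-treated cells, at 131 and 127 bp against 236 and 148 bp. The ratio of MYC stood at the 32.5 percentile of gene windows with a 100 kb flank, below their median log2 ratio of 0.62. These windows share the flank of MYC but differ in length.

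The higher H3K27ac length in the MYC window came with a region between MYC and PVT1. This region, at 128769167 to 128772035, lay 22.1 kb from the MYC start site, and no protein-coding or long non-coding RNA gene is annotated there. It held 1586 and 2869 bp in ATRA-treated cells and 0 and 359 bp in control cells. H3K4me3 at the same place was 976 and 370 bp in ATRA-treated cells with no peak in either control library. This was the only region near MYC with H3K4me3 peaks in both ATRA libraries and neither control library, a class that made up 3.04% of H3K4me3 regions genome-wide, and no region had the opposite pattern, which 0.759% had genome-wide.

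The surroundings of MYC were then followed in bins of 100 kb from 2 Mb before to 3 Mb after its start site. H3K27ac peaks were present in 32 of 50 bins, of which 12 were higher and 0 lower in ATRA-treated cells, or 37.5% higher, where 33.7% of all such bins of the genome were called higher and 4.44% lower. For H3K4me3, 5 of 17 bins with a peak were higher, or 29.4%, and 0 were lower, against 39.2% higher and 3.66% lower genome-wide. Both shares were near the genome-wide ones.

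The bins with the most H3K27ac lay far downstream, over CCDC26, a long non-coding RNA gene whose surroundings hold an enhancer cluster known to act on MYC in blood cells. From 1800 to 1900 kb H3K27ac covered 35236 and 53303 bp in ATRA-treated cells and 36796 and 71115 bp in control cells. From 1900 to 2000 kb it covered 25842 and 44128 bp against 20667 and 48569 bp. In both bins the conditions overlapped, and replicate 2 was above replicate 1 in each condition. H3K4me3 in the second bin was called higher, at 4028 and 17622 bp against 2238 and 2301 bp, with ATRA replicate 2 far above the others.

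Other bins separated the conditions more plainly. From 2200 to 2300 kb, over CYRIB, which encodes an inhibitor of RAC1 signalling, H3K27ac covered 28618 and 38981 bp in ATRA-treated cells and 7876 and 9466 bp in control cells. The bin from 500 to 600 kb, just past PVT1, held no protein-coding or named long non-coding RNA gene. There H3K27ac covered 6170 and 9802 bp in ATRA-treated cells, and neither control library had a peak. Before MYC, from -600 to -500 kb over PCAT1 and CASC19, the values were 17532 and 35505 bp against 3372 and 17641 bp, which overlapped.

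**Figure D3:**
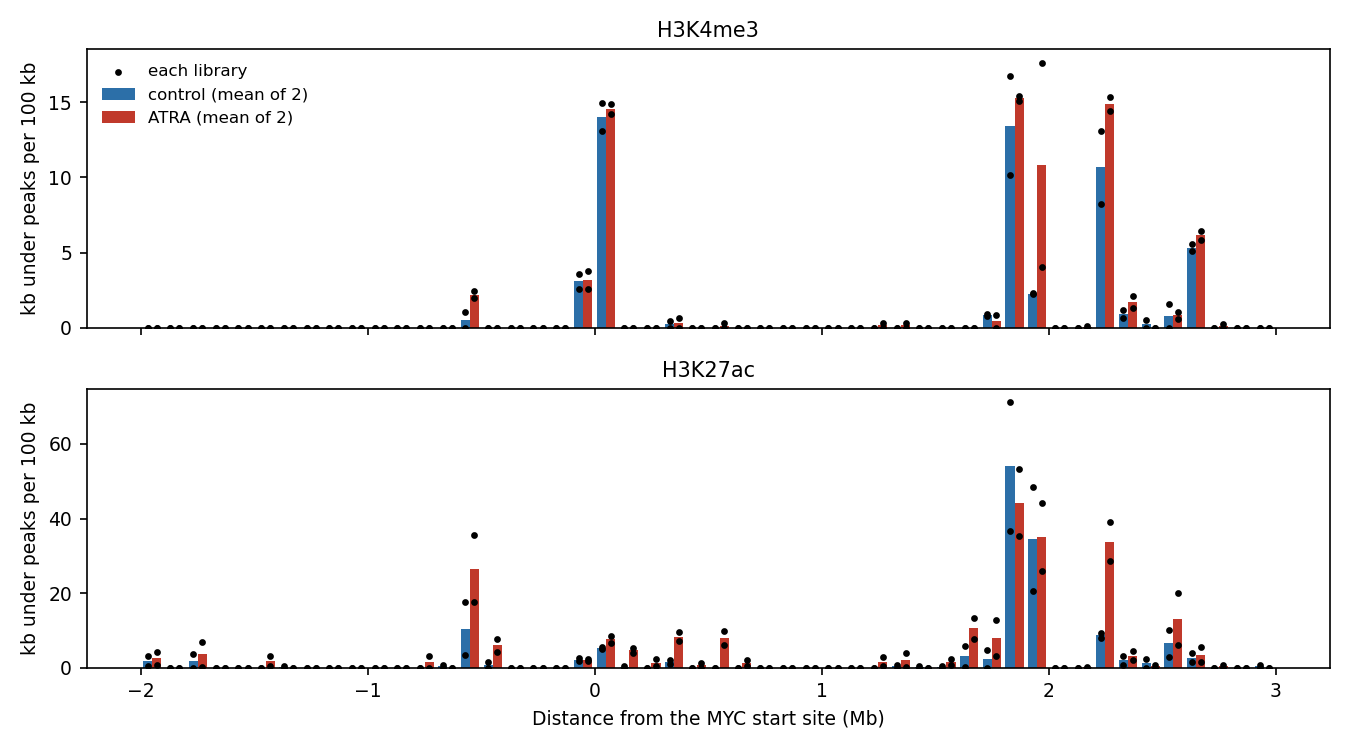
Length under peaks per 100 kb bin (kb, vertical axis) against distance from the MYC start site (Mb), H3K4me3 above and H3K27ac below. Bars are means of 2 libraries (blue control, red ATRA) and dots are single libraries. H3K27ac was longest from 1800 to 2000 kb in both conditions and separated the conditions from 2200 to 2300 kb.

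NRAS (ENSG00000213281, chromosome 1, 115247090 to 115259392, minus strand) had a single region of each mark, at its start. H3K4me3 covered 4678 and 4595 bp in ATRA-treated cells and 4215 and 2522 bp in control cells. Both ATRA libraries were above both control libraries, and control replicate 2, the H3K4me3 library with the least length under peaks in total, was the lowest. NRAS was the only member called higher for H3K4me3 on both scales. Per Mb under all peaks the values were 74.1 and 73.7 bp against 70.4 and 52.8 bp, with control replicate 1 close to the ATRA libraries. The log2 ratio was 0.37 with a pooled SD of 0.28 and an exact permutation p of 0.333. Without control replicate 1 the log2 ratio was 0.68, and without control replicate 2 it was 0.11, so its size depended on the control libraries. The direction reversed, to -0.39 with peaks of −log10 q of at least 5 and to -0.32 by the number of peaks. The −log10 q agreed poorly between replicates. By number, control replicate 2 had 2 peaks, which made up its 2522 bp, and each other library had 1.

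H3K27ac at NRAS was short, with 1006 and 856 bp in ATRA-treated cells and 762 and 1771 bp in control cells, and the conditions overlapped (log2 ratio -0.23, pooled SD 0.33). It was called lower per Mb under all peaks, at 15.5 and 9.94 bp against 26.5 and 32.8 bp. Its position differed by a small distance. The peaks of both ATRA libraries reached over the start site, and those of the control libraries ended 32 and 91 bp inside the gene. Without control replicate 2 the log2 ratio was 0.13 instead of -0.23.

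The chromosome 9 genes were expected to give no peak if their locus were deleted, and the data went against this. H3K4me3 formed 5 regions over the joined windows of MTAP, CDKN2A and CDKN2B, and all 5 were in all 4 libraries, where 57.3% of H3K4me3 regions genome-wide were. The length under H3K4me3 peaks averaged 20936 bp over the 4 libraries, and that under H3K27ac peaks averaged 11747 bp. Of all protein-coding gene windows, 67.9% had an H3K4me3 peak in all 4 libraries and 56.7% an H3K27ac peak. CDKN2A, CDKN2B and MTAP all belonged to both groups, so they are treated here as present, marked loci. Smaller deletions, loss of 1 copy and point mutations cannot be read from peak lists.

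**Figure D4:**
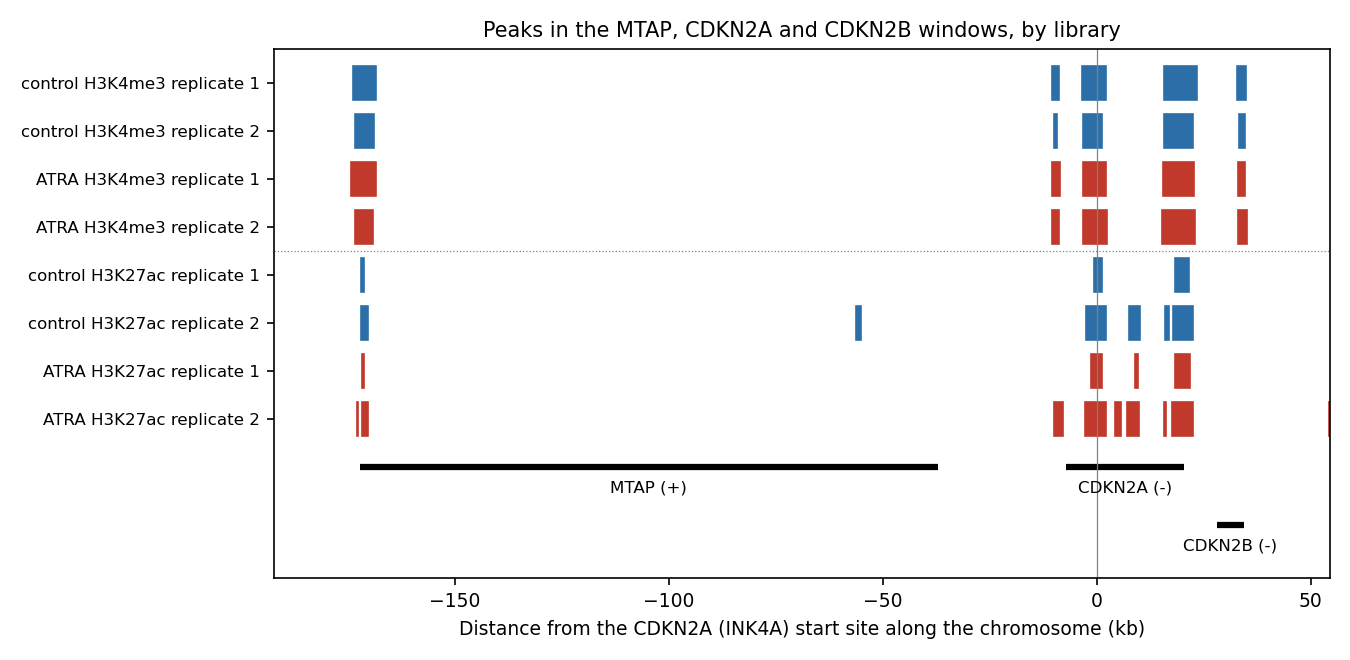
Peaks of each library (rows) over the MTAP, CDKN2A and CDKN2B windows, by distance along the chromosome from the start site of the INK4A transcript (kb). Blue is control and red ATRA, the upper 4 rows are H3K4me3 and the lower 4 H3K27ac, and black bars are genes with their strand. All 8 libraries had peaks over both CDKN2A start sites, and the MTAP body was almost free of peaks beyond its promoter.

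CDKN2A (ENSG00000147889, chromosome 9, 21967751 to 21995300, minus strand) was marked at both of its start sites. Over the ARF start site the H3K4me3 peak was 7317 and 7890 bp in ATRA-treated cells and 7819 and 6854 bp in control cells, at the 88.7 to 93.5 percentile of peak length. Over the INK4A start site it was 5389 and 5650 bp against 5410 and 4605 bp. The ARF peak also spanned the start of CDKN2B-AS1, an antisense RNA gene that runs the other way, so the marks of these starts cannot be told apart. H3K27ac over the ARF start site was 3649 and 4940 bp upon ATRA induction and 3290 and 4472 bp without it, and over the INK4A start site 2553 and 5056 bp against 1900 and 4686 bp. At both sites the conditions overlapped, and replicate 2 exceeded replicate 1 within each condition.

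Over the CDKN2A window as a whole, H3K4me3 covered 16227 and 16996 bp in ATRA-treated cells and 16984 and 13559 bp in control cells, with a log2 ratio of 0.11 and a pooled SD of 0.16. H3K27ac covered 6894 and 16543 bp against 5190 and 12801 bp, with a log2 ratio of 0.35 and a pooled SD of 0.82. Neither mark was called in bp, and for H3K27ac the spread between replicates was larger than the difference between conditions. Its log2 ratio was 1.04 without control replicate 2 and -0.34 without ATRA replicate 2. On the scale per Mb, H3K4me3 was called lower in ATRA-treated cells, at 257 and 273 bp against 283.8 and 284 bp, while H3K27ac overlapped.

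CDKN2B (ENSG00000147883, chromosome 9, 22002902 to 22009304, minus strand) differed from CDKN2A in carrying only H3K4me3 at its start site. That peak was short, at 1577 and 1921 bp in ATRA-treated cells and 2156 and 1388 bp in control cells. No H3K27ac peak lay over it, and the nearest one downstream was 11980 to 12808 bp away, at the ARF promoter. The H3K27ac in the CDKN2B window, 4341 and 7305 bp upon ATRA induction and 3290 and 7631 bp without it, was for the most part that neighbouring peak. The log2 ratios of the window were 0.034 for H3K4me3 and 0.079 for H3K27ac, and neither was called in bp. On the second scale both were called lower in ATRA-treated cells, H3K4me3 at 141 and 157 bp against 167 and 173 bp, and H3K27ac at 67.0 and 84.8 bp against 114 and 141 bp.

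MTAP (ENSG00000099810, chromosome 9, 21802635 to 21937650, plus strand) had H3K4me3 over its start site, with 5886 and 4282 bp in ATRA-treated cells and 5401 and 4410 bp in control cells. H3K27ac lay just inside the gene in all 4 libraries, and within 2 kb of the start site it covered 496 and 1619 bp in ATRA-treated cells and 664 and 1472 bp in control cells. The conditions overlapped for both marks, with window log2 ratios of 0.043 for H3K4me3 and -0.36 for H3K27ac. H3K27ac was called lower per Mb under all peaks, at 7.65 and 18.8 bp against 23.1 and 48.2 bp, and H3K4me3 overlapped. The MTAP body was nearly bare, as 112 kb of it, from 21806483 to 21918655, had no peak in any of the 8 libraries. On the far side of CDKN2B, a stretch of 3780 kb from 22209561 to 25989473 was free of peaks of both marks. It holds 4 protein-coding genes, DMRTA1, ELAVL2, IZUMO3 and TUSC1, and 18 of 55341 peak-free stretches in the genome were longer. A lack of peaks was not taken as a lack of DNA.

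**Figure D5:**
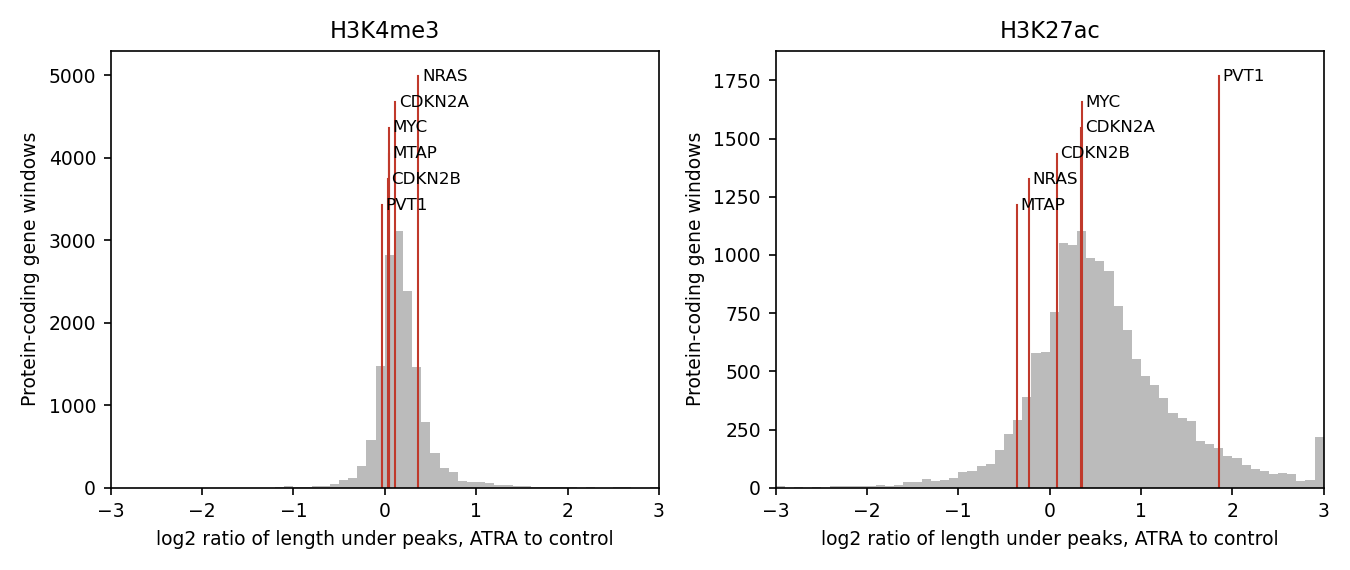
Number of protein-coding gene windows with a 20 kb flank and a peak of the mark (vertical axis) by log2 ratio of length under peaks, ATRA to control. H3K4me3 is on the left and H3K27ac on the right, with ratios beyond 3 in the outer bins. Red lines mark the 6 genes, MYC with its 100 kb flank. For H3K27ac PVT1 lay furthest to the right of the 6 genes at 1.85, and NRAS and MTAP lay below 0.

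The MYC network, a list of relatives and partners of MYC, MAX and MLX, was counted in the same way with a 20 kb flank. In this list and those that follow, a window can also hold promoters of neighbouring genes. Which promoter a peak lay on was not checked for these lists. Of its 18 genes, 11 were higher for H3K27ac and 0 lower, with a median log2 ratio of 0.78, where the median over all gene windows was 0.49 and 43.7% were higher and 3.86% lower. MLXIPL, a glucose-responsive factor of the same family, covered 26104 and 17249 bp in ATRA-treated cells and 1022 and 3949 bp in control cells (log2 ratio 2.70). MXD3, a MAX partner that opposes MYC, covered 20098 and 18105 bp against 2560 and 6194 bp (log2 ratio 1.90), and MLXIP was higher with a log2 ratio of 1.08. Per Mb under all peaks, 3 of the 18 were higher and 4 lower, beside 18.4% and 25.1% of all windows. For H3K4me3, 7 were higher and 0 lower, beside 41.3% and 3.39% of all windows, with a median of 0.18, and per Mb 3 were higher and 4 lower, beside 16% and 25.4%. Of the 7, MLXIPL (0.47), MGA (0.44) and TRRAP (0.33) had the largest log2 ratios. MYCN, a paralog used in other tissues, had no peak of either mark.

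Of 11 known MYC target genes, H3K27ac was higher at 3 and lower at 0, where 43.7% and 3.86% of all windows were, with a median log2 ratio of 0.19, and the 3 were NCL (0.61), CDK4 (0.53) and CCND2 (0.47). Per Mb under all peaks 0 were higher and 6 lower, beside 18.4% and 25.1% of all windows. H3K4me3 was higher at 3, NCL (0.28), NPM1 (0.13) and NME1 (0.041), and lower at 1, beside 41.3% and 3.39% of all windows. That 1 was TERT, the catalytic subunit of telomerase, with 1797 and 1715 bp in control cells and no H3K4me3 peak in either ATRA library. Per Mb under all peaks H3K4me3 was higher at 0 and lower at 7 of the 11, beside 16% and 25.4%.

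In the RAS pathway, 11 of 21 genes were higher and 0 lower for H3K27ac, with a median log2 ratio of 0.87, beside 43.7% and 3.86% of all windows. The counts per Mb were 7 higher and 4 lower, beside 18.4% and 25.1%. MAPK3, a MAP kinase, covered 12518 and 9416 bp in ATRA-treated cells and 1205 and 2995 bp in control cells (log2 ratio 1.95). DUSP6, a phosphatase of MAP kinases, and SPRED1, an inhibitor of RAS signalling, had log2 ratios of 1.45 and 1.44. For H3K4me3, 8 were higher and 0 lower, beside 41.3% and 3.39% of all windows, with a median of 0.12, and the kinase ARAF had the largest log2 ratio, 1.18. ARAF was the only one of the 8 also higher per Mb, with 8050 and 5680 bp against 3134 and 1800 bp, and 3 of the 21 were lower per Mb, beside 16% higher and 25.4% lower of all windows. MRAS had no peak of either mark, and RRAS2 had none of H3K4me3.

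Among 17 genes of the INK4, CIP and RB pathway, in which the products of CDKN2A and CDKN2B act, H3K27ac was higher at 8 and lower at 0, with a median log2 ratio of 0.49, equal to that of all windows, of which 43.7% were higher and 3.86% lower. CDKN1C, a CIP inhibitor of cyclin-dependent kinases, covered 5463 and 6284 bp in ATRA-treated cells and 717 and 269 bp in control cells (log2 ratio 2.20). RBL1, a relative of RB1, and CDKN1A, the inhibitor p21, had log2 ratios of 1.76 and 1.73. Per Mb under all peaks, 5 were higher and 6 lower, beside 18.4% and 25.1%. H3K4me3 was higher at 4 and lower at 0, beside 41.3% and 3.39% of all windows, with RB1 (0.43), MDM2 (0.35) and RBL2 (0.28) the largest. Per Mb, 2 were higher and 5 lower, beside 16% and 25.4% of all windows. The INK4 genes on chromosome 9 were called for neither mark in bp, and the calls they had per Mb were lower.

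The genes most like MYC, PVT1 and NRAS in their lengths over all 8 libraries were found by Euclidean distance of log2 length, with a 20 kb flank. Those nearest to MYC were ZNF512 (distance 0.34), SMU1 (0.34) and NFU1 (0.36), and those nearest to NRAS were DYNC1I2 (0.27), POT1 (0.44) and GINS3 (0.52). PVT1 was most like TULP1 (0.54), WDR45B (0.54) and SLA2 (0.55). SLA2, for one, had 20314 and 21174 bp under H3K27ac in ATRA-treated cells and 4154 and 4383 bp in control cells. These genes were picked for their likeness in these same lengths, so the likeness is not a separate result. Their windows share the 20 kb flank but not the length of the PVT1 window, 433 kb.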

How the data were processed

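HL-60 cells were treated with ATRA or ethanol and profiled by ChIP-seq for H3K4me3 and H3K27ac, with 2 libraries per group. Per the labels and the study's methods, the authors used cutadapt for trimming, Bowtie for alignment to hg19 and the broad mode of MACS2 for peaks, library by library (versions not given in the sources used here). Input DNA was sequenced, and its use in calling is not given. The deposited files hold peak positions and a −log10 q-value. The deposited fold and −log10 p columns held impossible values and were not used, and the −log10 q-value served only in a stricter alternative, since it agreed poorly between replicates.

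Peaks on chromosomes 1 to 22 and X were merged per library, and length under peaks was computed in windows around genes of GENCODE release 44 on GRCh37 (Python 3.11.15, numpy 2.4.6, pandas 2.3.3, scipy 1.17.1). An overlap needed 1 bp. Log2 ratios used a pseudocount of 1000 bp, and the scripts were tested on simulated peaks. The members and lists were chosen with earlier results of these data known. Genes named were the 6 members, neighbours, up to 3 of each list in each direction by log2 ratio, genes of a list without peaks, and the 3 most alike genes, except that a few genes this rule would name are not reported here. The chromosome 9 genes were compared by condition, and the scale per Mb was added, after the data were seen. No label ties replicates to separate cultures, so p-values measure only the spread between these libraries, which may be technical. Same-numbered libraries deviated together (r = 0.22 for H3K4me3 and 0.56 for H3K27ac over 75829 bins of 40 kb), but no label says that a number marks a shared day. Read depth is unknown, so no counting interval is given. Alternatives were a pseudocount of 100 bp, a −log10 q-value of at least 5, the number of peaks, the gene body alone, 2 kb around the start site, stretches shared by both replicates, the genome-wide ratio subtracted, a replicate block and each library left out.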

Additional observations from a re-analysis of the deposited data

How the results depend on the processing

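Among the values from alternatives other than leaving out a library, 75 moved by less than the spread between replicates, 22 moved by more and 3 reversed. A reversal was counted only for windows called higher or lower. Changes of sign in overlapping windows, such as H3K27ac at CDKN2A and CDKN2B below, were counted only by how far the value moved. The cause was not tested, apart from what each alternative leaves out. With the genome-wide log2 ratio subtracted, H3K27ac reversed at MYC (-0.51), and was 0.98 at PVT1, -1.10 at NRAS, -0.52 at CDKN2A, -0.79 at CDKN2B and -1.22 at MTAP, and H3K4me3 was -0.18 at MYC, -0.11 at CDKN2A and -0.19 at CDKN2B. With −log10 q of at least 5, H3K4me3 at NRAS reversed to -0.39 and at CDKN2B was -0.11. H3K27ac was then 1.42 at MYC, 2.87 at PVT1, -2.21 at CDKN2A and -2.69 at CDKN2B. This setting kept only 12.8 to 16.9% of the H3K27ac peaks of a library, against 80.2 to 87.4% for H3K4me3. By the number of peaks, H3K4me3 at NRAS reversed to -0.32, and was 0.19 at MYC, and H3K27ac was 1.44 at PVT1. For H3K27ac at PVT1 the value was 2.05 with a pseudocount of 100 bp, 0.028 within 2 kb of the start site and 1.44 over stretches shared by both replicates, where NRAS had 0.12. H3K27ac at MYC was 0.053 over the gene body and 0.013 within 2 kb of the start site. The summed H3K4me3 length of the chromosome 9 windows was 15177 bp over gene bodies alone.

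Leaving out each library in turn gave 51 values within the spread and 5 beyond it. For H3K4me3 the log2 ratios ranged from -0.06 to 0.16 at MYC, -0.25 to 0.22 at PVT1, 0.11 to 0.68 at NRAS, -0.030 to 0.27 at CDKN2A, -0.08 to 0.16 at CDKN2B and -0.16 to 0.22 at MTAP. For H3K27ac they ranged from 0.18 to 0.51 at MYC, 1.68 to 2.04 at PVT1, -0.52 to 0.13 at NRAS, -0.34 to 1.04 at CDKN2A, -0.34 to 0.67 at CDKN2B and -0.82 to 0.31 at MTAP. The summed lengths of the chromosome 9 windows ranged from 20453 to 21925 bp for H3K4me3 and from 9549 to 13711 bp for H3K27ac. With the replicate number as a block, H3K27ac was 1.86 at PVT1 and 0.35 at MYC, H3K4me3 was 0.40 at NRAS, and no member's value moved beyond the spread between replicates. Sequencing depth is not given in the sources used here, and its part in the differences of length was not tested.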
